A study of Danio rerio with 10 samples.

Results

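The genes described here encode 6 growth factor receptors: the fibroblast growth factor receptors fgfr1a, fgfr2, fgfr3 and fgfr4, the platelet-derived growth factor receptor alpha pdgfra, and the epidermal growth factor receptor egfra. They were chosen by name, as 6 of the 31388 features in the count table, by a rule that uses no measured value, though earlier results of these data were known when it was set. The libraries were made from adult zebrafish spinal cord after sorting of GFP-positive cells by FACS. Oligodendrocyte progenitor cells (OPCs) came from the transgenic line Tg(olig2:eGFP) and mature, myelinating oligodendrocytes (OLs) from Tg(mbp:eGFP), with 5 libraries of each. No further allele, injury or treatment is named for either population. Cells of both lines were gated on GFP and on a dye that stains nuclei, and spinal cords of up to 5 fish were dissected together. In Tg(olig2:eGFP) some ventral radial glia also carry GFP, and a finer cell strainer was used for OPCs than for OLs, so line, strainer and population cannot be told apart.

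All 6 genes encode receptor tyrosine kinases. Binding of a ligand brings receptor molecules together, which then phosphorylate each other and signal through the Ras and ERK cascade, PI3 kinase and Akt, and phospholipase C gamma. FGF receptors bind FGFs together with heparan sulfate chains of cell surface proteoglycans. In mammals PDGF, acting on the alpha receptor, is the classical mitogen of OPCs, and PDGFRA is the marker by which these cells are usually recognised and which is lost on differentiation. FGF receptor signalling in the mammalian lineage has been tied to progenitor growth and, later, to the thickness of the myelin sheath, and EGF receptor signalling to the production of oligodendrocytes from progenitors.

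The total count of a library was 11072526 to 11960408 in OPCs and 13937725 to 20225093 in OLs, so every OL library was deeper than every OPC library. The labels of both populations were set beside marker genes. As the cells were sorted on GFP of olig2 and mbp reporter lines, OLIG2 and mbpa are not an independent check of the labels. The lineage gene OLIG2 had 13681 to 24347 normalized counts (counts divided by the size factor of the library) in OPCs and 2426 to 5710 in OLs, and GPR17, a receptor of late progenitors in mammals, had 216 to 902 in OPCs and at most 1.12 in OLs. The myelin genes plp1b and mbpa were abundant in both populations: plp1b had 631770 to 918184 normalized counts in OPCs and 1223300 to 1511030 in OLs, and mbpa had 439486 to 588058 in OPCs and 869905 to 1043820 in OLs. CSPG4, a defining marker of mammalian OPCs, had at most 13.1 normalized counts in any OPC library and 0.939 in any OL library. Not every marker separated the populations. The lineage gene SOX10 (edgeR adjusted p = 0.793) and the OPC markers PTPRZ1 (ENSDARG00000020871, 0.505) and vcanb (0.453) were not called. Of the OPC list, 3 of 6 tested were higher in OPCs and 0 in OLs. As GPR17 passed the filter through OPCs, this count carries no weight. The sum of the OPC list was 6272 to 15478 in OPCs and 8237 to 14055 in OLs. Of 11 OL markers tested, 4 were higher in OLs and 1 was higher in OPCs (2.8% and 9.06% of all tested features). The library OPC1 stood nearest to the OLs, with a median correlation with OL libraries of 0.827, against 0.719 to 0.791 for the other OPC libraries. In bulk samples fewer cells of a type and less RNA per cell cannot be told apart. The labels do not trace each library to its own fish, so the p-values measure the spread between these libraries.

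Only 1 of the 6 receptors, fgfr1a, was abundant in either population. Its counts summed to 12206 over the 10 libraries, followed by egfra with 339, fgfr2 with 272, pdgfra with 77, fgfr4 with 68 and fgfr3 with 5. The filter for low counts kept fgfr1a, fgfr2 and egfra, while fgfr3, fgfr4 and pdgfra did not pass it. Of the 3 receptors that passed, edgeR's quasi-likelihood test called 1, egfra, which was higher in OPCs. Over all 12292 features tested, 11.9% were called, 9.06% as higher in OPCs and 2.8% as higher in OLs (1114 and 344 features; 1812 and 118 with library size alone). For the other 3 receptors the same test was run without the filter, a choice made after seeing the data. This called fgfr4 and pdgfra as higher in OPCs, where 9.22% of the 25313 features tested were called in all, 7.79% as higher in OPCs and 1.43% as higher in OLs.

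**Figure D1:**
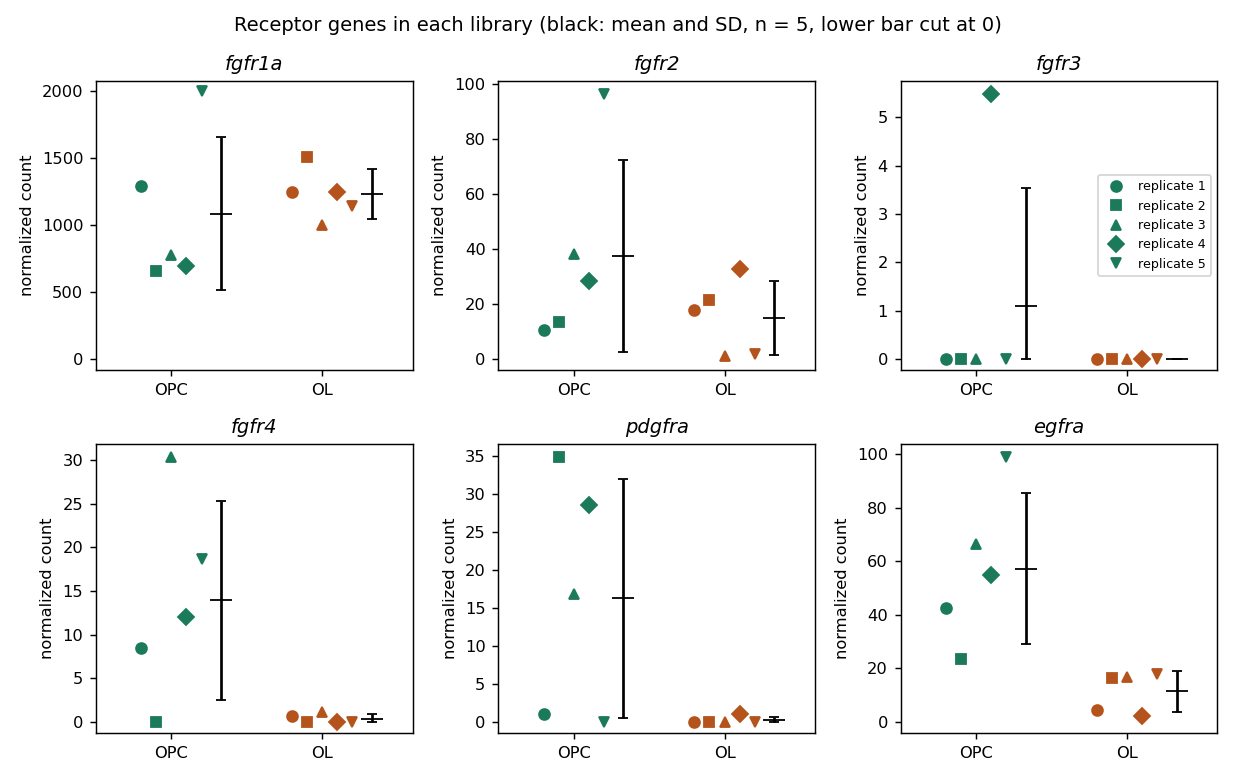
Normalized count (vertical axis) of each of the 6 receptors in the 5 OPC libraries (green, left) and the 5 OL libraries (orange, right), with the replicate number as the symbol and the mean and SD in black. The OPC libraries all lie above the OL libraries for egfra (23.6 to 99.1 against 1.98 to 17.8), while the populations overlap for fgfr1a and fgfr2.

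fgfr1a (ENSDARG00000011027), a receptor for many secreted FGFs, lies on the minus strand of chromosome 8, from 51444068 to 51537939 in GRCz10, with 20 merged exon blocks of 7451 bases. It had 1294, 658, 780, 698 and 2000 normalized counts in OPC1 to OPC5, and 1243, 1511, 1002, 1246 and 1138 in OL1 to OL5. The OPC libraries lay on both sides of the OL range, OPC2, OPC3 and OPC4 below it and OPC5 above it, so the groups overlapped. The means were 1086 ± 571 in OPCs and 1228 ± 187 in OLs (mean ± SD over 5 libraries each). The SD was thus 52.6% of the mean in OPCs and 15.2% in OLs, and without OPC5 the OPC mean was 857 ± 296 (n = 4). The difference was smaller than its error (log2 fold change −0.18, SE 0.29, approximate 95% interval −0.74 to 0.39, edgeR adjusted p = 0.787). That interval leaves room for a modest change in either direction, and scaling by library size alone turned the sign (log2 fold change 0.15, adjusted p = 0.778). OPC5 held the highest value of all libraries. Without OPC5 the log2 fold change was −0.52, still short of the threshold (edgeR adjusted p = 0.143).

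fgfr2 (ENSDARG00000058115), which in mammals is expressed in maturing oligodendrocytes, lies on the minus strand of chromosome 13 (46162095 to 46292968, 20 exon blocks, 5774 bases). In OPC1 to OPC5 it had 10.6, 13.3, 38.3, 28.5 and 96.2 normalized counts, and in OL1 to OL5 17.9, 21.4, 1.12, 32.6 and 1.88. Both populations were uneven: OL3 and OL5 held 1 and 2 counts while OL4 held 33. The OPC mean was 37.4 ± 34.8 and the OL mean 15.0 ± 13.5, a log2 fold change of 1.31 (SE 0.85, interval −0.36 to 2.99, edgeR adjusted p = 0.402). Much of the OPC excess lay in OPC5, without which the log2 fold change was 0.59 (adjusted p = 0.725).

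fgfr3 (ENSDARG00000004782), also on the minus strand of chromosome 13 (13085956 to 13163718, 19 exon blocks, 3239 bases), marks radial glia and astrocytes in the mammalian spinal cord. Its 5 counts all came from OPC4, which is 5.48 normalized counts, and the other 9 libraries were at 0. A count of 0 allows up to 3 counts, which is 0.662 to 1.04 normalized counts per kb of exon depending on the library. No difference was detectable at this depth (edgeR without the filter, adjusted p = 0.219), and no fold change is given.

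fgfr4 (ENSDARG00000069105), a receptor for FGFs of the endocrine and paracrine groups, lies on the minus strand of chromosome 21 (37498712 to 37509505, 20 exon blocks, 5011 bases). It had 8.52, 0, 30.4, 12.1 and 18.7 normalized counts in OPC1 to OPC5, and 0.714, 0, 1.12, 0 and 0 in OL1 to OL5. All but 1 of the OPC libraries, OPC2, lay above the highest OL library. In raw counts this was 8, 0, 27, 11 and 20 reads in OPCs and a total of 2 reads in OLs. The pooled OPC over OL ratio was 38.2, with an exact 95% interval of 10.2 to 322 that covers counting error only. In the fit without the filter the unadjusted p was 0.00175 and the adjusted p was 0.0253 (edgeR). The call was close to the threshold: the adjusted p was 0.0678 without OPC3, 0.0647 without OL2, 0.0628 without OL4 and 0.0605 without OL5. The fitted log2 fold change stayed at 4.37, 4.59, 4.62 and 4.61 in these fits, against 4.86 with all libraries, and OL2, OL4 and OL5 held no reads of fgfr4.

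To set fgfr1a, fgfr2, fgfr3 and fgfr4 side by side, levels were taken per kb of exon and summed. The summed level was 155 ± 81.7 normalized counts per kb in OPCs (90.6 to 289) and 167 ± 26.6 in OLs (135 to 206). The populations did not differ beyond this spread (difference of mean log2 levels −0.23, two-sided p = 0.492 by exact permutation over all assignments of the libraries, for which 0.00794 is the lowest possible p). With library size alone the difference was 0.070 (exact p = 0.881), and without OPC5 it was −0.49 (exact p = 0.0794).

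fgfr1a made up most of the summed level of these 4 genes in every library. Its share was 93.8% ± 3.86 in OPCs (89.2% to 98.0%) and 98.5% ± 1.27 in OLs (96.7% to 99.8%), a difference of −4.75 percentage points (exact permutation test, p = 0.0397, adjusted over the 4 shares p = 0.0847). The rest was mostly fgfr2, with 3.96% ± 2.08 in OPCs and 1.45% ± 1.30 in OLs (exact p = 0.0635, adjusted p = 0.0847). fgfr4 held 1.95% ± 1.98 in OPCs and 0.0498% ± 0.0740 in OLs (exact p = 0.0476, adjusted p = 0.0847). None of the 4 shares therefore passed the threshold after adjustment, and 2 passed it before. In OPC1 and OPC2 fgfr1a held 98.0% and 97.4% of the summed level, inside the OL range, while OPC3, OPC4 and OPC5 lay below every OL library. Leaving out OPC1 brought the adjusted p of the fgfr1a share to 0.0476, and leaving out OPC2 to 0.0317. These were the only 2 of the 10 libraries whose removal brought it under the threshold, and the highest value was 0.148.

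**Figure D2:**
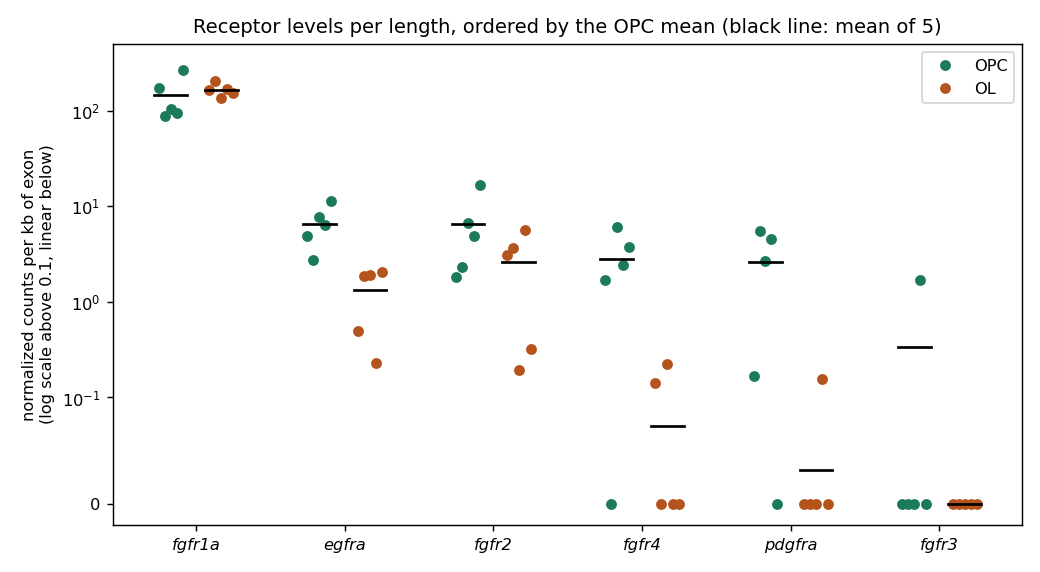
Normalized counts per kb of exon (vertical axis, log scale above 0.1 and linear below) of the 6 receptors in each OPC library (green, left of each pair) and OL library (orange, right), ordered by the OPC mean, with a black line at each mean of 5. fgfr1a, at 146 in OPCs and 165 in OLs, stands above all other receptors in both populations.

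Ordered by the mean level per kb, the receptors in OPCs were fgfr1a (146), egfra (6.61), fgfr2 (6.48), fgfr4 (2.78), pdgfra (2.59) and fgfr3 (0.338). In OLs the order was fgfr1a (165), fgfr2 (2.59), egfra (1.32), fgfr4 (0.0731), pdgfra (0.0315) and fgfr3 (0). Among neighbours in the OPC order only fgfr1a and egfra had ranges that did not overlap. Among OL neighbours, fgfr1a stood apart from fgfr2, whereas the ranges of fgfr2 and egfra overlapped. The OL ranges of egfra and fgfr4 did not overlap, but only by 0.228 against 0.223. These values are 2 reads of egfra in OL4 and 1 read of fgfr4 in OL3, both under 3 counts. This separation and the OL order of fgfr4, pdgfra and fgfr3 are therefore not resolved. Per kb, fgfr1a was at percentile 68.5 of the tested features in OPCs and 71.7 in OLs.

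pdgfra (ENSDARG00000070494), which binds PDGF and marks OPCs in mammals, lies on the minus strand of chromosome 20 (22535507 to 22576582, 29 exon blocks, 6274 bases). It had 1.06, 34.9, 16.9, 28.5 and 0 normalized counts in OPC1 to OPC5. In OL1 to OL5 it had 0, 0, 0, 0.988 and 0, which is a single read in OL4. OPC2, OPC3 and OPC4 thus carried nearly all of the reads, with 34, 15 and 26, while OPC5 had none and OPC1 had 1. The pooled OPC over OL ratio was 88.0 (exact 95% interval 15.3 to 3522, counting error only), with an unadjusted p of 0.00113 and an adjusted p of 0.0182 in edgeR's fit without the filter. Leaving out each library in turn kept the call, with an adjusted p of at most 0.0496. The level was low throughout: the OPC mean was 16.3 ± 15.7 normalized counts, with an SD of 96.8% of the mean.

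egfra (ENSDARG00000013847), the receptor for EGF and related ligands, lies on the plus strand of chromosome 2 (3864859 to 3989336, 28 exon blocks, 8660 bases). It had 42.6, 23.6, 66.4, 54.8 and 99.1 normalized counts in OPC1 to OPC5, and 4.29, 16.2, 16.8, 1.98 and 17.8 in OL1 to OL5. Every OPC library lay above every OL library, the lowest OPC library being OPC2 and the highest OL library OL5. Of all tested features, 8.93% had groups that did not overlap with OPCs higher, and 3.68% with OLs higher. The means were 57.3 ± 28.2 in OPCs and 11.4 ± 7.63 in OLs, a 5.00-fold difference (log2 fold change 2.32, SE 0.63, interval 1.09 to 3.56, edgeR adjusted p = 0.0299). The value stayed between 2.03 and 2.54 when each library was left out, but the adjusted p was 0.0616 without OPC3, 0.0526 without OPC4, 0.0571 without OPC5 and 0.0615 without OL1. egfra was thus the only receptor that passed the filter and the test together, and its call was close to the threshold.

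The balance between receptors within a library was compared for all 15 pairs, with ratios of normalized counts per kb, so that the scaling of libraries cancelled. No pair passed after adjustment over the 15, and 2 had an unadjusted exact p under 0.05. fgfr1a over egfra had a log2 ratio of 4.46 ± 0.62 in OPCs and 7.29 ± 1.38 in OLs, a difference of −2.83 (exact permutation test, p = 0.00794, adjusted p = 0.119). This exact p is the lowest that can be reached, so a fully separated pair cannot pass by itself after adjustment over the 15. fgfr1a over fgfr4 differed by −3.82 (exact p = 0.0238, adjusted p = 0.179). With a pseudocount of 5 in place of 0.5, 3 pairs passed at an adjusted p of 0.0397, namely fgfr1a over fgfr4, fgfr1a over egfra and fgfr3 over egfra. The last of these compares egfra with a gene that was at 0 in 9 libraries.

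The receptors were not high in the same OPC libraries. fgfr1a, fgfr2 and egfra each had their highest level in OPC5, in which pdgfra was at 0, and pdgfra was highest in OPC2, in which fgfr4 was at 0 and egfra was lowest. Other genes, picked after their values were seen, also set OPC5 apart. GPR17 had 216, 551, 353, 431 and 902 normalized counts in OPC1 to OPC5, and the myelin gene regulator MYRF had 1498, 1001, 1056, 880 and 3015. The 9 markers of cell division summed to 785, 2115, 1447, 1880 and 715 in OPC1 to OPC5. Most of this sum was PCNA, with 650, 1268, 953, 1394 and 515, and PCNA was as abundant in OLs (834 to 1069). CDK1, the kinase that drives entry into mitosis, had 20.2, 157, 94.5, 72.3 and 0.934 in these libraries and 0 in every OL library. Not every member followed this order: CCNB1 was highest in OPC5 (30.8), MCM2 had 152 in OPC5 against 143 in OPC2, and mki67 had 40.5 in OPC1 against 18.6 in OPC4. The summed level, but not each member, was thus highest in the 3 OPC libraries in which pdgfra was highest. These are 5 libraries, too few for a correlation, and the part of cell division or maturation in the receptor levels was not tested.

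**Figure D3:**
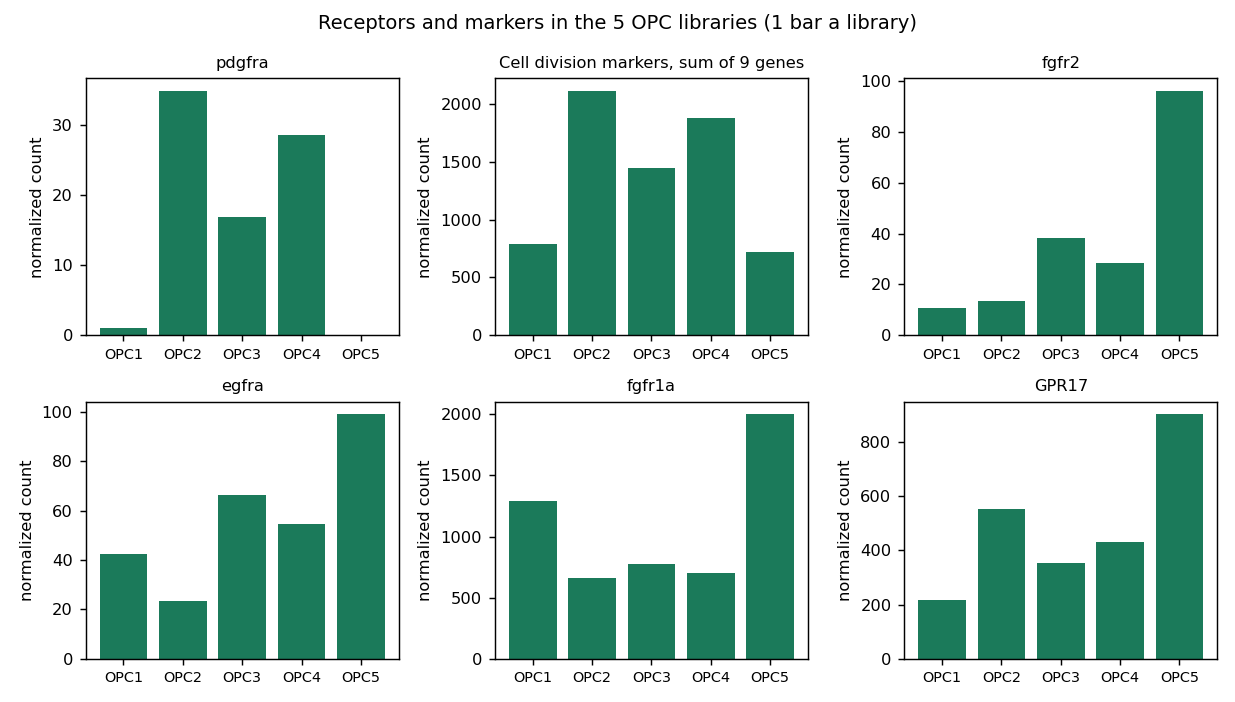
Normalized counts (vertical axes, from 0) of pdgfra, the summed 9 cell division markers, fgfr2, egfra, fgfr1a and GPR17 in the 5 OPC libraries, with 1 bar a library. pdgfra and the cell division sum are high in OPC2, OPC3 and OPC4, and the other 4 measures are highest in OPC5.

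Some markers of other cell types moved with the populations too, and others did not. Of the radial glia list, 8 of the 18 tested rose in OPCs and 1 was higher in OLs (9.06% and 2.8% of all tested features). Of the 8, her4.1, her4.2, SOX2 and FOXJ1 were at or near 0 in OLs and passed the filter through OPCs, so this count carries no weight. The summed level of the list was 121772 to 167265 in OPCs and 111231 to 159563 in OLs. Most of that sum was GLUL, whose features ENSDARG00000099776 and ENSDARG00000100003 were not called (edgeR adjusted p = 0.534 and 0.955), so it says little about the other markers. FABP7, a fatty acid binding protein of radial glia, had 7259 to 21531 normalized counts in OPCs and 188 to 736 in OLs, and GFAP was not called (edgeR adjusted p = 0.108). Among neuron markers, 7 of 11 tested were higher in OPCs, again beside 9.06% of all tested features, and none in OLs, with sums of 8202 to 10973 in OPCs and 7049 to 8490 in OLs. The tested features of STMN2, GAD1 and GAD2 were at or near 0 in OLs and passed the filter through OPCs, so the count of 7 carries no weight. ELAVL3 and ELAVL4, the most abundant of the list, were not called (edgeR adjusted p = 0.579 and 0.550). ELAVL3 had 3860 to 6500 normalized counts in OPCs and 4641 to 6663 in OLs, and ELAVL4 had 1259 to 1634 in OPCs and 1308 to 1916 in OLs. Fibroblast markers summed to 290 to 2354 in OPCs and 4.94 to 343 in OLs, almost all of it DCN in OPCs. DCN, 1 of 1 tested, had at most 14.1 in OLs and passed the filter through OPCs, so this count carries no weight. It had 267, 2332, 332, 754 and 624 in OPC1 to OPC5. DCN and pdgfra were thus both highest in OPC2, but DCN was higher in OPC5, where pdgfra was at 0, than in OPC3. The collagens COL1A1, col1a1a and COL1A2 had at most 5.32 in any library. COL5A2, another collagen of the list, had at most 40.2 in an OPC library (OPC5) and 327 in OL5. For microglia and leukocytes edgeR called 0 of 5 tested features (1 at an unadjusted p under 0.05, 1 by DESeq2 and 0 by limma), where it called 11.9% of all tested features. The sums were 2192 to 7016 in OPCs and 3737 to 14799 in OLs. Most of this was apoeb, with 2015 to 6935 in OPCs and 3198 to 14707 in OLs (edgeR adjusted p = 0.0521). P2RY12 was at 0 in every library but OL2 (0.854). What such cells contributed to fgfr4, pdgfra and egfra was not tested. The myelin genes plp1b and mbpa were abundant in OPC libraries too. What RNA of OLs contributed to the OPC levels of fgfr1a, or to the summed level and shares, was also not tested.

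The genes around the receptors were taken from lists of ligands, further receptors, targets, inhibitors and shared signalling proteins. These lists cover 131 features, of which 77 passed the filter, 15 were higher in OPCs and 1 was higher in OLs, where 9.06% and 2.8% of all tested features were called in these directions. Most of the 15 were near 0 in OLs and passed the filter through OPCs, so their count carries no weight. With at least 10 counts in every library 2 features were called in place of 16. Genes near 0 in OLs cannot be tested under that setting, so this fall carries no weight either. The median log2 fold change of the 77 tested pathway features was 0.10, against 0.06 over all tested features.

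Among further FGF receptors only a feature that the symbol table annotates as FGFR1 (ENSDARG00000011190) passed the filter. It had 272 ± 146 normalized counts in OPCs and 218 ± 87.6 in OLs and was not called (edgeR adjusted p = 0.648). Per kb of exon its mean was 95.2 in OPCs and 76.2 in OLs, where fgfr1a had 146 in OPCs and 165 in OLs, and it is not part of the summed level of the 4 receptors above. FGFRL1, a receptor without a kinase domain, had 18.0 in OPC3 and 0 in all other libraries.

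FGF ligand genes were mostly at or near the floor of 3 counts in both populations. Of 29 features, 14 had at most 3 counts in every library and only 3 passed the filter, each of them higher in OPCs. fgf1a, which encodes a secreted ligand of all FGF receptors, had 72.8 ± 41.8 normalized counts in OPCs and 6.58 ± 5.32 in OLs (log2 fold change 3.47, SE 0.79, edgeR adjusted p = 0.0108). The other pair, FGF12 and FGF13, encode FGF homologous factors, which stay inside the cell and bind sodium channels. FGF13 (ENSDARG00000035056) averaged 214 ± 130 in OPCs and 0.826 ± 1.48 in OLs (adjusted p = 5.09e-05), and FGF12 had 387 reads in OPCs and 1 read in OLs, a pooled ratio of 448 (counting interval 80.0 to 17748). As genes of low level pass the filter through the population in which they are high, the count of 3 of 3 carries no weight.

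The targets and feedback inhibitors of FGF and ERK signalling were measured more fully, with 19 of 21 features tested. Of these, 8 were higher in OPCs, 0 were higher in OLs and 11 were not called, with a median log2 fold change of 0.55. Over all tested features 9.06% were higher in OPCs, but most of the 8 were near 0 in OLs and passed the filter through OPCs, so their count carries no weight either. With at least 10 counts in every library it was 1. egr1, an immediate early gene, had 791, 3114, 2640, 3398 and 2410 normalized counts in OPC1 to OPC5, and 0, 9.39, 3.35, 0.988 and 2.82 in OL1 to OL5. OPC1 was thus the lowest OPC library, and was still far above every OL library (log2 fold change 9.51, SE 0.66, edgeR adjusted p = 2.57e-06). ETV4, an ETS factor induced by FGF in vertebrate embryos, averaged 416 ± 329 in OPCs and 0.727 ± 0.730 in OLs (adjusted p = 1.93e-05). DUSP5, a nuclear phosphatase of ERK, averaged 93.0 ± 46.0 in OPCs, with 1 read in all OLs together, a pooled ratio of 511 (counting interval 91.2 to 20218).

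The other 5 called targets are outside the naming rule and were picked after their values were seen. The ETS factor etv5b had 674, 884, 1091, 1443 and 535 normalized counts in OPC1 to OPC5 and at most 6.83 in any OL library. Its paralog etv5a was present in both populations, at 551 ± 148 in OPCs and 207 ± 48.0 in OLs (log2 fold change 1.41, edgeR adjusted p = 0.00105). ETV1 averaged 418 in OPCs and 5.46 in OLs. The feedback inhibitor SPRY4 had 138, 141, 132, 344 and 41.1 in OPC1 to OPC5 and at most 12.2 in OLs, and the phosphatase gene DUSP4 averaged 76.7 in OPCs and 12.2 in OLs (adjusted p = 0.0107, or 0.0644 with the replicate number as a block). Other feedback genes of the same list were not called. SPRY2 had 719 ± 144 in OPCs and 664 ± 126 in OLs (adjusted p = 0.787), and DUSP6 had 69.7 ± 27.3 in OPCs and 46.1 ± 17.4 in OLs (adjusted p = 0.430). Of the called targets, SPRY4, etv5b, ETV4, ETV1, egr1 and DUSP4 were highest in OPC4, etv5a in OPC1 and DUSP5 in OPC2. fgfr1a was highest in OPC5. Any link between receptor and target levels was not tested.

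**Figure D4:**
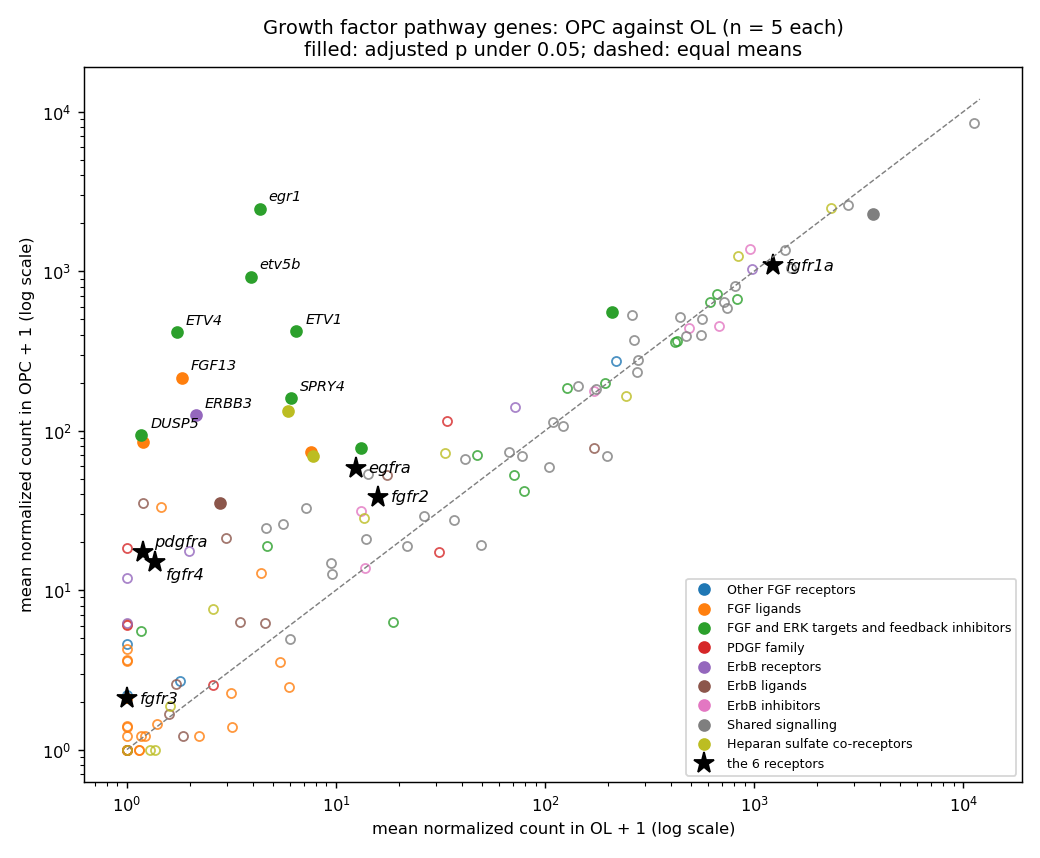
Mean normalized count + 1 in OPCs (vertical axis) against OLs (horizontal axis), both on log scales, for 131 pathway features coloured by list, filled where the adjusted p was under 0.05, with the 6 receptors as black stars and equal means dashed. egr1, ETV4, etv5b and DUSP5 lie far above the dashed line, while fgfr1a lies close to it.

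In the PDGF family 2 of 6 features were tested and neither was called by edgeR, 1 of them having an unadjusted p under 0.05, while DESeq2 and limma each called 1. Over all tested features edgeR called 11.9%. PDGFA, the main ligand of the alpha receptor, had 44.7, 159, 108, 228 and 32.7 normalized counts in OPC1 to OPC5, and 47.1, 37.6, 11.2, 28.7 and 40.4 in OL1 to OL5 (log2 fold change 1.78, SE 0.56, edgeR adjusted p = 0.0571). Leaving out OPC1 or OPC5 brought the adjusted p to 0.0317 or 0.0185. Leaving out any other library gave an adjusted p of 0.0656 to 0.154, so PDGFA was then not called. OPC2, OPC3 and OPC4 lay above every OL library and OPC1 and OPC5 within the OL range, the same division of OPC libraries as for pdgfra. PDGFC, another ligand of the alpha receptor, did not pass the filter. It had 6.39, 24.6, 32.6, 21.9 and 0.934 in OPC1 to OPC5 and 0 in every OL library, again lowest in OPC5 and OPC1. These ligands were picked after their values were seen.

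Of the 6 further ErbB receptor features 3 were tested and 1 was called, where 11.9% of all tested features were called, 9.06% as higher in OPCs. This was ERBB3 (ENSDARG00000006202), a receptor for neuregulins with little kinase activity of its own, with 125 ± 32.2 normalized counts in OPCs and 1.14 ± 1.19 in OLs (log2 fold change 6.54, SE 0.62, edgeR adjusted p = 2.08e-05). Its paralog erbb3b, which in zebrafish is needed for Schwann cell development, was abundant in both, at 1036 ± 561 in OPCs and 974 ± 150 in OLs (adjusted p = 0.904). ERBB2, the usual partner of ERBB3, did not pass the filter and averaged 16.5 in OPCs and 0.977 in OLs. Among ErbB ligands 1 of 3 tested was called: egf averaged 34.0 ± 26.8 in OPCs and 1.78 ± 3.98 in OLs (log2 fold change 4.22, edgeR adjusted p = 0.0317). This call was lost without OPC2, OPC3, OL1, OL2, OL3 or OL5 (adjusted p 0.0593 to 0.0828), and the only OL reads were in OL4, without which the fitted log2 fold change was 8.14. ERBB3 and egf were near 0 in OLs and passed the filter through OPCs, so the counts of called ErbB receptors and ligands carry no weight. All 6 ErbB inhibitor features were tested and 0 were called by edgeR, DESeq2 or limma, with 1 at an unadjusted p under 0.05 in edgeR. The share of all tested features that edgeR called was again 11.9%.

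Transcripts of the proteins that carry the signal inside the cell were measured in both populations, and few were called. Of 33 tested features of this list, from adaptors such as GRB2 and FRS2 to RAF, MEK, ERK, PI3 kinase and AKT, 0 were higher in OPCs and 1 was higher in OLs. Over all tested features 9.06% and 2.8% were called in these directions. The median log2 fold change was −0.12 in this list and 0.06 over all tested features. The one called was annotated HRAS (ENSDARG00000098497), with 2296 ± 372 normalized counts in OPCs and 3704 ± 220 in OLs (log2 fold change −0.69, SE 0.13, edgeR adjusted p = 0.00373). This call did not hold with library size alone (log2 fold change −0.38, adjusted p = 0.109). At an unadjusted p under 0.05 there were 6 in either direction, and DESeq2 called 2 and limma 4.

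Of the heparan sulfate proteoglycans that present FGFs to their receptors, 7 of 12 features were tested and 2 were higher in OPCs, both glypicans. Over all tested features 9.06% were higher in OPCs. Both glypicans were near 0 in OLs and passed the filter through OPCs, so their count carries no weight. GPC1 averaged 132 ± 70.9 normalized counts in OPCs and 4.88 ± 8.72 in OLs (log2 fold change 4.82, SE 1.03, edgeR adjusted p = 0.00730). GPC4 averaged 68.1 ± 26.9 in OPCs and 6.79 ± 7.38 in OLs (log2 fold change 3.33, adjusted p = 0.0187). The paralog gpc1b and the syndecan sdc4 were abundant in both populations and were not called.

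For each receptor, the features most like it were found among 9035 well measured features with a symbol, by the mean absolute difference of centred log2 levels over the 10 libraries, in which a smaller value means a closer pattern. For fgfr1a these were ERF (0.162), KLHDC10 (0.166) and erbb3b (0.171). egfra was closest to FAM171A2 (0.522), tcf7l1b (0.536) and HES6 (0.537), and fgfr2 to ENO1 (0.670), pcyt1ba (0.681) and ctc1 (0.698). fgfr4 was nearest to GRIA3 (0.726), SYPL1 (0.779) and cspg5b (0.835), and pdgfra to RTN4R (0.811), ATCAY (0.820) and TSPAN18 (0.825). For fgfr3, at 0 in 9 libraries, they were atpv0e2 (0.319), DDX5 (0.341) and HNRNPAB (0.347), which rests on its near constant 0. The 10 libraries share their population, so a pattern can be alike through the population alone.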

How the data were processed

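RNA of FACsorted OPCs and OLs (5 libraries each) was amplified as full-length cDNA. The authors aligned single-end reads with GSNAP to the GRCz10 build, assigned them to Ensembl genes with featureCounts (1.5.2), and deposited raw counts of 31388 features. Whether strand was used, and how reads of several genes were treated, is not given in the sources used here. No molecular identifiers are stated, so intervals of pooled ratios and the floor of 3 counts cover counting error only. The deposited identifiers were paired with gene symbols for 25925 features; paralogs often share a symbol, and list symbols were matched without case, or without a final a or b. No count column was left unmapped. Each receptor overlaps 0 other features.

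Counts were filtered with edgeR's filterByExpr (12292 kept), scaled by median-of-ratios size factors from DESeq2 (0.889 to 1.40) and compared with edgeR's quasi-likelihood test, OPC over OL, with Benjamini-Hochberg adjustment and a threshold of 0.05 (R 4.3.3, edgeR 4.0.16, DESeq2 1.42.0, limma 3.58.1). Sums, shares (adjusted over 4) and ratios of receptors (adjusted over 15, pseudocount 0.5) were compared with exact permutation tests in Python 3.11.15. The scripts were tested on simulated data with 200 changed features. Libraries of one population differed far beyond counting noise (chi-square per degree of freedom at least 30.7), so none was counted as a copy. Named genes were all 6 receptors with their 3 most alike features (mean of at least 50 normalized counts, log2 of count + 1), and from each pathway list the 3 with the largest change in each direction among those with an adjusted p under 0.05 and a mean of at least 50 in the higher population; from each marker list, the 2 most abundant and defining markers at 0 were examined. The receptors and lists were chosen with earlier results of these data known. Alternatives were other normalizations, filters, tests and thresholds, a replicate block, thinning to 11072526 counts, another pseudocount and leaving out each library. The fits without the filter for fgfr3, fgfr4 and pdgfra were chosen after seeing the data.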

Additional observations from a re-analysis of the deposited data

Results flagged for a closer look

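In 20 groups of 5 libraries, 3 had 1 library far from the other 4. Chance gives about 1 for continuous values, but in these 3 groups the other 4 libraries were at 0. Any read in the remaining library is then flagged, so the count of 3 carries no weight. All 3 rest on a handful of reads. fgfr3 was measured only in OPC4, at 5.48 normalized counts, and for the same reason its share of the summed FGF receptor level was 1.65% in OPC4 and 0 in the other OPC libraries. In OLs pdgfra was measured only in OL4, at 0.988 normalized counts, which is 1 read.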

How the results depend on the processing

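The number of differing features was 1458 (1114 higher in OPCs, 344 higher in OLs). It was 2335 with no filter (1973 higher in OPCs), 449 with at least 10 counts in every library (285 and 164) and 878 at an adjusted p under 0.01 (117 higher in OLs). Library size alone gave 1812 higher in OPCs and 118 in OLs, DESeq2 gave 589 and limma voom 638 higher in OLs, and leaving out each library gave 1284 to 1795 (987 to 1325 higher in OPCs, 237 to 470 in OLs). The share of calls higher in OPCs was 76.4%, against 93.9% with library size alone, which moved the median log2 fold change to 0.36 from 0.06, and 84.5% with no filter, which moved it to 0.19; it was 63.5% with at least 10 counts. Of the receptors, 1 was called, against 3 with no filter, 0 with at least 10 counts, 0 at 0.01 and 0 to 1 with a library left out. Pathway features called numbered 16, against 2 with at least 10 counts and 15 to 19 with a library left out. With library size alone the log2 fold change of fgfr1a was 0.15 and that of the summed FGF receptors 0.070. At 0.01 the calls of fgfr4 (log2 fold change 4.86 as fitted without the filter), pdgfra (5.73) and egfra (2.32) were lost. Without 1 library the fitted log2 fold change was 4.37 to 5.44 for fgfr4, 5.25 to 7.08 for pdgfra and 2.03 to 2.54 for egfra, and the difference in share was −5.81 to −3.61 points for fgfr1a, 2.06 to 3.25 for fgfr2, 0 to 0.412 for fgfr3 and 1.098 to 2.39 for fgfr4. With a pseudocount of 5, 3 pair ratios passed and not 0. Of 201 values for named pathway genes, 198 kept direction and call. With the replicate number as a block 1414 features differed and egfra was at 2.49 (adjusted p = 0.0479); no receptor lost its call. Same-numbered libraries deviated together weakly (correlation 0.0240 to 0.105, against −0.102 to 0.0730 for other numbers). As not every pair was over 0.1 and the labels name nothing shared, they were not treated as pairs, although 4 of 5 OPC libraries correlated best with their own number, a hint from the data of a shared factor. Causes of these changes were not tested, beyond fewer features or samples where a filter or a left-out library sets them. In OLs fgfr3, fgfr4 and pdgfra had 0 to 2 reads in all, at or under the floor of 3 counts in every OL library, so their OL levels are not resolved.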
